A study of Mus musculus with 3 samples.

Results

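The tripartite motif (TRIM) family of ubiquitin ligases was described in restimulated mouse macrophages, gene by gene. Members were the genes whose symbol is Trim followed by a digit and which have at least 1 transcript of the protein-coding biotype. The rule took 68 of the 22028 protein-coding genes in the annotation. Of the 69 genes with such a symbol, Trim30e-ps1 has no protein-coding transcript and was left out.

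The RNA came from primary bone-marrow-derived macrophages of the C57BL/6J strain, and polyadenylated transcripts were sequenced in 3 libraries. The cells had been exposed to 100 ng/ml lipid A for 12 h, kept without it for 12 h and then exposed to 100 ng/ml again for 480 min. Lipid A is the part of bacterial lipopolysaccharide that Toll-like receptor 4 senses, though the source and treatment entries give lipoprotein A instead. All libraries carry this treatment, labelled replicates 1, 2 and 3, so there is 1 group and no contrast between conditions. The labels give 1 donor record and no age, so the p-values below concern only these libraries, whose spread may be technical.

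TRIM proteins are built from an N-terminal RING finger, 1 or more B-box zinc fingers and a coiled coil, followed by a variable C-terminal part. The RING finger recruits ubiquitin-loaded E2 enzymes, the coiled coil pairs the proteins, and the C-terminal part, often a PRY-SPRY domain, selects the target. In macrophages the family is best known for sensing viral capsids and antibody-coated particles, for ubiquitylating RNA and DNA sensors and their adaptors, and for restraining Toll-like receptor and NF-kB signalling. Other members act in muscle, in neurons, in germ cells and as co-repressors on chromatin.

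Libraries held 24596382 (replicate 1), 54016971 (replicate 2) and 43127749 (replicate 3) expected counts. Levels are TPM, a transcript's share of its library corrected for length, so they can be compared between genes. Unless stated, levels are from the first of 2 deposited quantifications. Replicate 2 stood apart. Mitochondrial mRNAs held 6.86% of its counts, against 1.06% and 1.13% in replicates 1 and 3, and the median detected protein-coding gene lay 0.27 lower on the log2 scale in replicate 2 than in the mean of the others. All 8 macrophage markers were detected, with a summed level of 13482 to 16732 TPM. Summed markers of B cells, natural killer cells, dendritic cells, fibroblasts and muscle stayed at or below 0.67 TPM, and the 3 erythroid markers were at 0 counts. The 4 T cell markers summed to 19.99 to 112.9 TPM, of which Cd4 gave nearly everything, while Cd3e did not pass 0.19 TPM. The 4 neutrophil markers summed to 3.13 to 16.7 TPM with Ly6g at 0 counts, and the 2 endothelial markers to 2.56 to 8.31 TPM. The T cell, neutrophil and endothelial sums were highest in replicate 2, the last through Cdh5 (0.36, 5.82 and 0.45 TPM).

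Of the 68 members, 34 were detected, meaning at 1 TPM or more in each library. That is 50% of the family, beside 42.9% of all protein-coding genes. Another 3 members, Trim45, Trim46 and Trim47, reached 1 TPM in some libraries only. A further 17 were low, with some counts but under 1 TPM in every library: Trim2, Trim7, Trim9, Trim15, Trim16, Trim17, Trim29, Trim34b, Trim38, Trim43a, Trim43b, Trim43c, Trim66, Trim69, Trim72, Trim75 and Trim80. The remaining 14 were silent, with 0 expected counts in all 3 libraries: Trim10, Trim31, Trim40, Trim42, Trim50, Trim52, Trim54, Trim55, Trim58, Trim60, Trim61, Trim63, Trim67 and Trim71. Silent genes made up 20.6% of the family and 34.9% of all protein-coding genes. With 3 counts as the limit that a count of 0 allows, the limits of the silent members were 0.00793 to 0.203 TPM. They depend on gene length and library and cover counting error only. A second deposited quantification of the same reads put Trim52 above its limit in every library, at 1.43, 1.11 and 0.78 TPM. There, Trim63 (0.123 TPM) and Trim67 (0.0835 TPM) were above theirs in replicate 2. In these bulk libraries, fewer cells expressing a gene and less RNA per cell cannot be told apart.

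**Figure D1:**
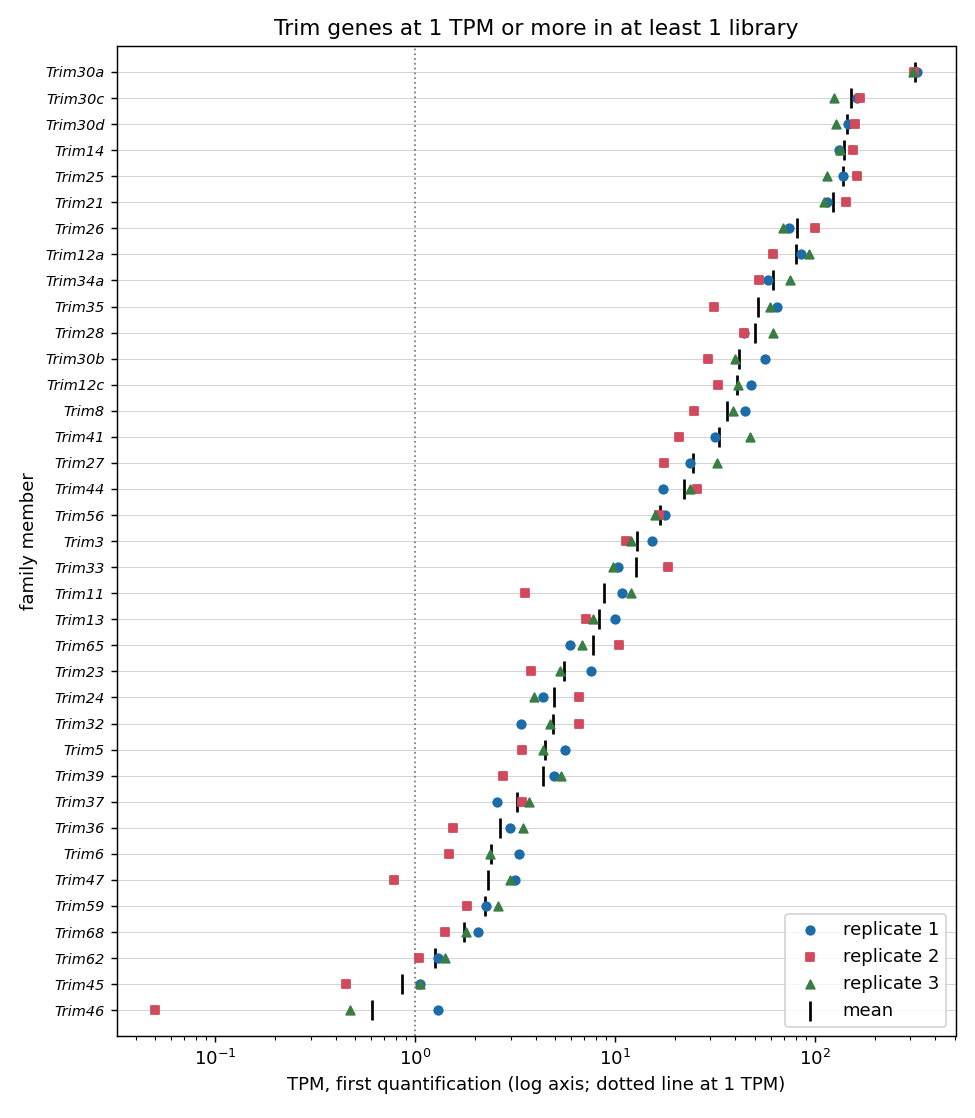
TPM (log axis) of the 37 members that reached 1 TPM in at least 1 library, with 1 symbol per library and a bar at the mean of 3. Trim30a stands alone at 311 to 325 TPM, most neighbours in the order overlap, and the 3 members with points under the dotted line at 1 TPM (Trim47, Trim45 and Trim46) were lowest in replicate 2.

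The family's summed level was 1647 ± 36.4 TPM (SD, n = 3), or 0.179% ± 0.00435 (SD, n = 3) of all protein-coding TPM. It was concentrated in few genes. The 6 highest members held 61.5% ± 4.93 (SD, n = 3) of it and the 10 highest held 78.2% ± 3.23 (SD, n = 3). Altogether 20 members had a mean of 10 TPM or more. Ranked by mean level, the 34 detected members form 33 neighbouring pairs, and in 30 of these the ranges over libraries overlapped. The ranges did not overlap between Trim30a and Trim30c, between Trim21 and Trim26, and between Trim56 and Trim3.

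Among the role lists, the one for sensing nucleic acids and capsids had the highest share detected and the highest median level. It was drawn up by gene name, and a sensing role was not checked for each member. Of its 18 members 17 were detected, and their median log2(mean TPM + 1) was 5.69, beside 1.32 over all members and 0.37 over all protein-coding genes. The 9 highest members belong to this list, and Trim34b was its only member under 1 TPM. The list mixes roles: Trim30a and Trim26 are also known to limit NF-kB and interferon signalling. Without the Trim30 genes and Trim26, 12 of 13 were detected, with a median of 4.15. In the other direction, 0 of 9 germ cell and early embryo members, 0 of 4 muscle members and 0 of 2 erythroid members were detected. The lists were drawn up with earlier results of these data known, so the counts describe the family and are no independent evidence.

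**Figure D2:**
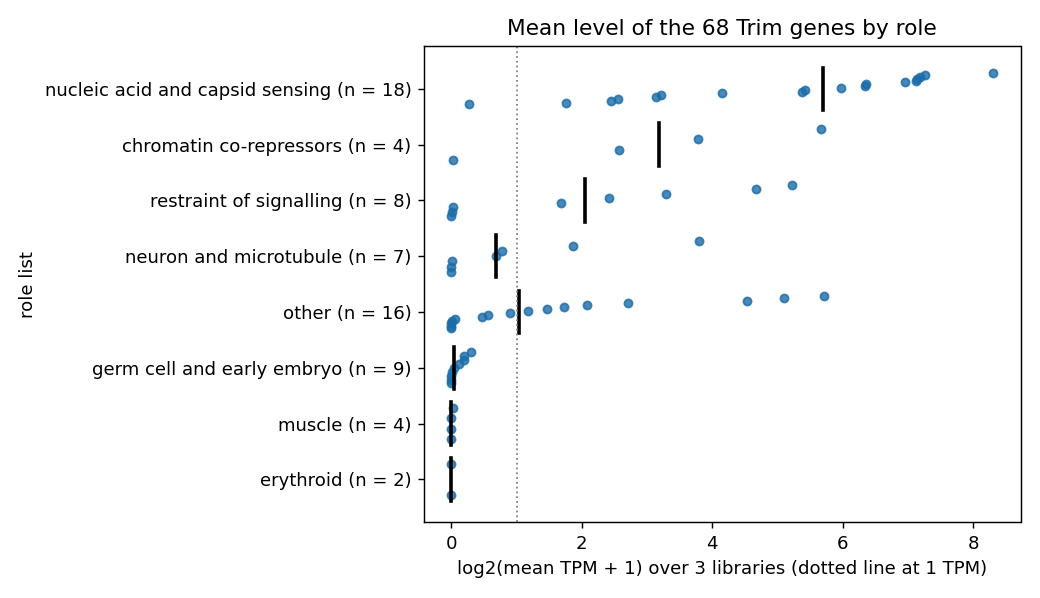
Mean level over 3 libraries, as log2(mean TPM + 1), of all 68 members by role, with 1 point per gene and a bar at the median of each list. The sensing list has its median at 5.69 with 1 of its 18 genes left of the dotted line at 1 TPM, while all 15 genes of the germ cell, muscle and erythroid lists lie left of it.

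Trim30a was the most abundant member. Its product is known to limit NF-kB signalling by driving the loss of TAB2 and TAB3, adaptors of the kinase TAK1. The gene (ENSMUSG00000030921.17) lies on the minus strand at chr7:104409025-104465193 of mm10. It stood at 325, 312 and 311 TPM in replicates 1, 2 and 3, a mean of 316 ± 7.93 (SD, n = 3), above 98.0% of protein-coding genes. Its range did not touch that of any other member, and the gene alone gave 19.2% ± 0.153 (SD, n = 3) of the family's TPM. In the second quantification, Trim30a stood at 244, 337 and 300 TPM, a mean of 294 ± 47.1 (SD, n = 3). The small spread of Trim30a therefore holds for the first quantification only. Of its neighbours and closest relatives, Trim30c stood at 163, 168 and 125 TPM, and Trim30d at 147, 158 and 127 TPM. Trim30b stood at 56.4, 29.01 and 39.7 TPM. Trim30c and Trim30d overlapped, and Trim30b was below both in every library.

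Within each library Trim30a exceeded its 3 paralogues. The log2 ratio to Trim30d was 1.14 ± 0.15, to Trim30c 1.07 ± 0.22 and to Trim30b 2.97 ± 0.45 (SD, n = 3 each), all of 1 sign in the 3 libraries and beyond 3 SD. With protein-coding transcripts only, the ratio to Trim30b was 4.48. With 3 libraries the smallest p of an exact sign-flip test is 0.25, so the ratios carry no test. The encoded proteins, translated from the annotated coding sequences, were 82.7% identical between Trim30a and Trim30d over 496 aligned residues and 72.2% identical between Trim30a and Trim30c. Trim30b is cut short, with 203 residues against 496 in Trim30a. At the RNA level, 11.9% of the 31-base words in Trim30a transcripts also occur in another gene, mainly in Trim30d, so most reads could be placed. The deposited model's own uncertainty in sharing reads (posterior SD) was at most 0.143% of the count for Trim30a, Trim30c and Trim30d.

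The promoters of Trim30a and Trim30d are shown because these tandem copies, both among the 3 highest members, carry a near-identical stretch ahead of their start sites. The stretches come from RefSeq promoters on GRCm38.p6 and end at 1 and 2 bases before the annotated start. Capitals mark the match to the core of the interferon-stimulated response element, GAAANNGAA, read here on the opposite strand. Interferon-stimulated response elements are bound by interferon regulatory factors and by the STAT complex that type I interferon activates.
Trim30a, chr7:104465194-104465258, minus strand: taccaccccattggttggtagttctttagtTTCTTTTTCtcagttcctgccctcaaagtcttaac
Trim30d, chr7:104507851-104507919, minus strand: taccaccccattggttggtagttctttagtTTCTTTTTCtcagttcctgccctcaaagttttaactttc
Both genes carry the same 9 bases, beginning 35 bases before the start of Trim30a and 40 bases before that of Trim30d.

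The same core was found in 3 more of the abundant members, shown to compare its surroundings and distance from the start. They come from the same RefSeq set, with the match in capitals.
Trim25, chr11:88999364-88999402, plus strand: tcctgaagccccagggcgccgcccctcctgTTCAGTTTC
Trim26, chr17:36836963-36837031, plus strand: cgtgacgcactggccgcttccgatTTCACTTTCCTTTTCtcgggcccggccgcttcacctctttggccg
Trim12c, chr7:104353350-104353407, minus strand: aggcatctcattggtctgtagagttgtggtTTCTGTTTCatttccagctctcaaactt
Trim26 holds 2 overlapping matches. The match begins 9 bases before the RefSeq start in Trim25, 28 in Trim12c, and 159 and 153 in Trim26. In the GENCODE annotation used for the levels, Trim25 starts at chr11:88999376, within the stretch shown and ahead of the match. By that annotation the Trim25 match lies inside the gene.

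Promoters of 250 bases before to 50 after the start were found for 53 members, and only the 250 bases before the start were searched. The core, searched on both strands, lay in 8 of these genes (15.1%), beside 8.18% of all 27025 genes with a promoter in the set. The share was 6 of 26 detected members (23.1%), beside 8.15% of detected protein-coding genes. It was 5 of 15 members with a mean of 10 TPM or more (33.3%). The share over all genes at that level was not computed, so this last count has no background. The members holding it were Trim30a, Trim30d, Trim25, Trim26, Trim12c and Trim5 among those detected, with Trim34b and Trim7 among the low ones. Trim30a and Trim30d hold the same letters, as do Trim12c and Trim5. Both pairs are related genes on chromosome 7, so the matches are not independent of each other. For a second interferon motif, the gamma-activated site TTCNNNGAA, the counts were 1 of 26 detected members (Trim30c) and 7.16% of detected protein-coding genes. For an NF-kB motif, GGAANNTCC, they were 1 of 26 (Trim28) and 4.76%. A match describes the letters of this window and no binding was measured.

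The Trim30 genes are part of a cluster of 10 members on chromosome 7, at chr7:104218793-104507849 of mm10. The cluster spans 289.1 kb and its 10 protein-coding genes are all members. It held 51.2% ± 1.55 (SD, n = 3) of the family's TPM, and the 4 Trim30 genes alone held 39.7% ± 2.02 (SD, n = 3). Of its 10 members 9 were detected. Levels differed widely between genes that lie side by side. Trim6, whose product makes free ubiquitin chains that activate the kinase IKK-epsilon, lay at 3.30, 1.48 and 2.37 TPM at the edge of the cluster. Trim34a, next to it, lay at 58.2, 52.7 and 74.6 TPM. The within-library log2 ratio of Trim6 to Trim34a was -4.69 ± 0.52 (SD, n = 3).

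**Figure D3:**
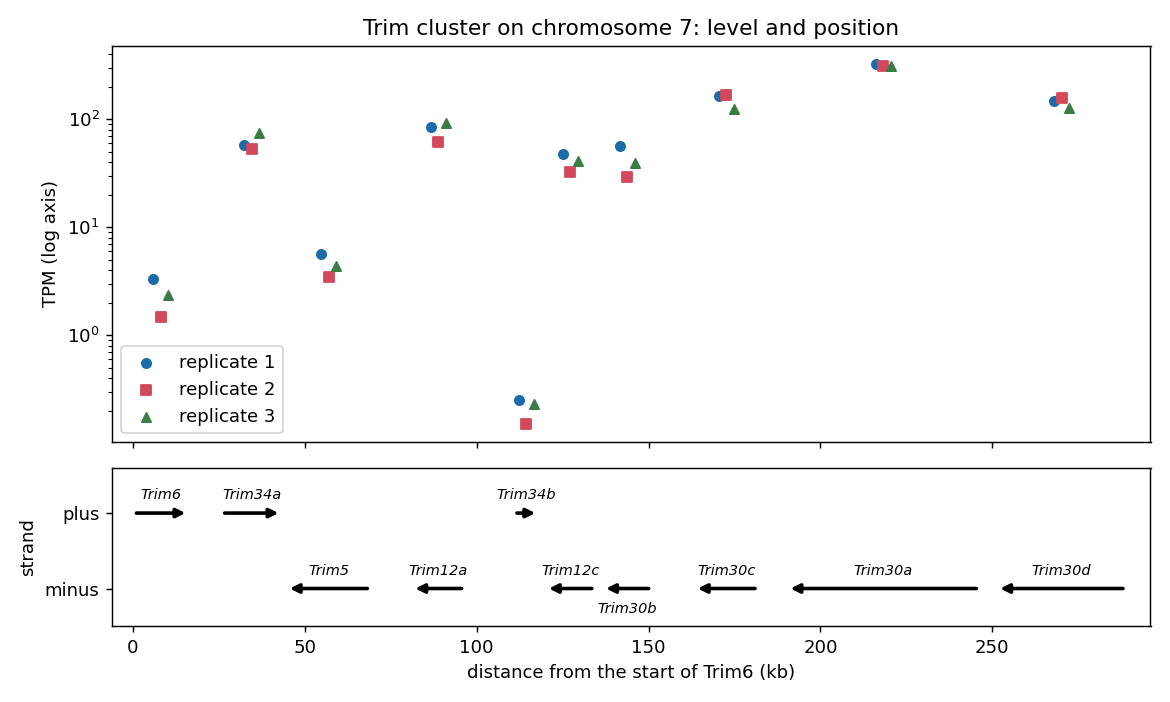
TPM (log axis) of the 10 members of the chromosome 7 cluster in each library, above their position and strand as distance from the start of Trim6 in kb. The 4 Trim30 genes on the right stand at 29.01 TPM or more in every library, and Trim34b stays at 0.25 TPM or less between Trim12a and Trim12c.

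Trim34a and Trim34b, near-copies of the gene whose primate relative binds retroviral capsids, stood far apart in level. Their proteins are 97.9% identical over 485 residues, and 69% of the 31-base words of Trim34b also occur elsewhere, mainly in Trim34a. Trim34b was given 0.25, 0.15 and 0.23 TPM, and the log2 ratio of Trim34a to Trim34b was 7.64 ± 0.23 (SD, n = 3), or 5.68 with 1 TPM added in place of 0.1. The posterior SD from sharing reads was 10.3 to 14.7% of the count for Trim34b and at most 0.674% for Trim34a. The second quantification gave Trim34a a mean of 55.4 TPM and Trim34b 0.268 TPM, so both read divisions placed nearly all reads on Trim34a. Trim34a also overlaps an antisense gene, Gm47248, listed at 22.5 TPM, and the strand setting of the counting is not given in the sources used here, so reads of this pair may not be separated.

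Trim5, Trim12a and Trim12c are the mouse relatives of the capsid sensor TRIM5-alpha. Trim12a stood highest at 85.0, 61.8 and 93.1 TPM. Trim12c followed at 47.97, 32.7 and 41.2 TPM, and Trim5 stood at 5.64, 3.42 and 4.36 TPM. Their ranges did not overlap, and the order was the same in each library. The log2 ratio was -0.97 ± 0.18 for Trim12c over Trim12a and -4.14 ± 0.25 for Trim5 over Trim12a (SD, n = 3 each). The longest Trim12a protein ends after 297 residues, while Trim5 and Trim12c have 497 residues each and are 94.4% identical. Shared 31-base words made up 53.3% of Trim5, 48.1% of Trim12c and 16% of Trim12a, and the posterior SD stayed at or below 0.583% of the count in all of them.

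Trim25, Trim21, Trim14 and Trim26 completed the upper part of the order. Trim25, which ubiquitylates the RNA sensor RIG-I, stood at 137, 162 and 114 TPM. Trim14, an adaptor at the mitochondrial protein MAVS, stood at 132, 155 and 134 TPM. Trim21, the cytosolic receptor for antibody, stood at 115, 142 and 111 TPM. Trim26, which is linked to the turnover of IRF3, stood at 74.6, 99.6 and 69.6 TPM. Trim14 overlaps Nans on the opposite strand, listed at 18.7 TPM, and shares 36.4% of its 31-base words, mainly with Nans, so reads of that overlap may not be separated. In TPM, each of the 4 was highest in replicate 2, and the first 3 overlapped with each other and with Trim30d. Trim14 had 2101, 3851 and 4088 expected counts, so replicate 3 held more of them than the larger replicate 2. Trim56, which acts with the DNA-sensing adaptor STING, was more even at 17.8, 16.6 and 15.8 TPM. In the second quantification it was less so, at 12.2, 17.1 and 14.8 TPM. The detected sensing members Trim13, Trim32 and Trim65 had means of 4.90 to 8.31 TPM.

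These genes stood far above the relatives they were paired with. The log2 ratio was 6.05 ± 1.28 for Trim25 over Trim47, 6.05 ± 0.44 for Trim21 over Trim68 and 4.23 ± 0.79 for Trim26 over Trim39 (SD, n = 3 each). Without replicate 2, Trim25 over Trim47 was 5.31. With protein-coding transcripts only, it was 7.07, and Trim26 over Trim39 was 3.54. Trim16 over Trim14 gave -8.03 ± 0.82 (SD, n = 3), or -6.59 with 1 TPM added and -7.10 with protein-coding transcripts only. Trim14 and Trim16 belong to the TRIM proteins without a RING finger. A C3HC4 RING spacing was found in the translated sequence of 54 of 68 members (79.4%) and in 0.721% of the other protein-coding genes. Among the 34 detected members, 27 held it (79.4%). The detected ones without a match were Trim14, Trim44, Trim23, Trim24, Trim36, Trim37 and Trim41, and no match says only that this spacing was not found.

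Of the 8 members listed for restraint of signalling, 5 were detected. Trim8, which binds the cytokine-signalling suppressor SOCS1, stood at 44.8, 24.9 and 38.7 TPM, and Trim27, known to restrain the kinases of the IKK family, at 23.7, 17.6 and 32.3 TPM. Trim11, Trim39 and Trim59 were detected at means of 8.82, 4.35 and 2.22 TPM. Trim40 was silent, and Trim29 and Trim38 were low. Trim38, which acts on TAB2 and on the Toll-like receptor 3 adaptor TRIF, had 1 expected count in all 3 libraries together. The log2 ratio of Trim27 to Trim38 was 7.78 ± 0.27 (SD, n = 3, with 0.1 TPM added to both), and 4.62 with 1 TPM added, since Trim38 is near 0.

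Of the 4 chromatin co-repressors 3 were detected, in the order Trim28, Trim33 and Trim24, and Trim66 was low. Trim28, or KAP1, is the scaffold that silences retroelements with KRAB zinc finger proteins. It stood at 43.97, 43.9 and 61.6 TPM. Trim33 stood at 10.3, 18.3 and 9.76 TPM and Trim24 at 4.38, 6.57 and 3.95 TPM. Trim33 exceeded Trim24, its closest relative with 54.6% identity, in every library, and the log2 ratio of Trim24 to Trim33 was -1.32 ± 0.13 (SD, n = 3). Trim28 over Trim33 gave 2.00 ± 0.70 (SD, n = 3), which did not pass 3 SD. The other unseparated pair of the 20 was Trim8 over Trim56, at 1.07 ± 0.42 (SD, n = 3). Without replicate 2 both of these pairs were separated, at 2.37 and 1.31. With protein-coding transcripts only, Trim24 and Trim33 were not separated (-0.93), nor were Trim28 and Trim24 (2.08), and Trim28 over Trim33 was 1.16.

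Members with other known roles were fewer and mostly lower. Of the neuron and microtubule list, Trim3 was detected at 15.4, 11.4 and 12.0 TPM and Trim36 at a mean of 2.66 TPM. Trim2, the closest paralogue of Trim3 with 67.6% identity, was low at 0.86, 0.70 and 0.58 TPM, and the log2 ratio of Trim2 to Trim3 was -4.00 ± 0.16 (SD, n = 3). It was -3.01 with 1 TPM added, -2.96 in the second quantification and -3.35 with protein-coding transcripts only. Trim46, which organises the microtubules of the axon, lay on both sides of the limit, at 1.30, 0.05 and 0.47 TPM, and its mean of 0.607 TPM became 0.26 TPM without replicate 1. Among the 16 members in no role list 7 were detected. Trim35 led them at 64.3, 31.1 and 59.6 TPM, followed by Trim41 at 31.5, 20.8 and 47.4 TPM and Trim44 at 17.3, 25.7 and 23.7 TPM. The others detected in this list were Trim23, Trim37, Trim62 and Trim68, at means of 1.25 to 5.54 TPM. Trim47 was at 3.16, 0.78 and 2.98 TPM and Trim45, which carries a filamin repeat, at 1.06, 0.45 and 1.06 TPM. Trim41 overlaps Rack1 on the opposite strand, listed at 233.6 TPM, and shares 0.112% of its 31-base words with other genes. Trim65 and Trim47 overlap on the same strand and share 6.44% and 7.27% of their words, mainly with each other, while the posterior SD from sharing reads was at most 0.611% of the count in both.

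Members were also grouped by C-terminal part, from a list by gene name with no domain searched in the sequences. Of the 38 members listed as PRY-SPRY, 21 were detected, and 14 had a mean of 10 TPM or more. Over all 68 members these counts were 34 and 20, and 42.9% of all protein-coding genes were detected. The median log2(mean TPM + 1) was 1.74 for PRY-SPRY members beside 1.32 over all members, so the class was hardly set apart. The PRY-SPRY counts include Trim12a and Trim30b, whose longest proteins end after 297 and 203 residues. Whether these short proteins hold the domain was not checked. Both transmembrane members, Trim13 and Trim59, were detected, as were 3 of 4 with a PHD finger and bromodomain. The counts were 2 of 4 with NHL repeats, 1 of 4 with COS and fibronectin domains, and 0 of 3 muscle RING proteins.

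The 3 libraries differed in most members by more than counting error. A chi-square test of homogeneity on scaled counts, adjusted by Benjamini-Hochberg over all genes, called 34 of 40 members tested, beside 87.9% of all 11932 genes. The 6 members not called were Trim14, Trim59, Trim68, Trim62, Trim7 and Trim17. Of these, Trim14 (adjusted p = 1.47e-06) and Trim7 (adjusted p = 1.25e-03) were called by the same chi-square test in the second quantification. Trim14 was also called without replicate 1 and Trim7 without replicate 3. For spread beyond that of genes of like abundance, edgeR's quasi-likelihood fit with Benjamini-Hochberg adjustment called 0 of 40 members and 0% of all genes, so it sets no gene apart and does not show that members spread like the others. Trim47 and Trim11 had the highest variance ratios to the trend among members, 3.91 and 2.93 (unadjusted p = 0.103 and 0.153 in the same edgeR fit). At an unadjusted p under 0.05 the same fit gave 0 of 40 members and 503 of 11932 genes. With DESeq2's size factors it also called 0 members, and 507 genes had an unadjusted p under 0.05. In the first quantification, the coefficient of variation of detected members ranged from 2.51% in Trim30a to 52.2% in Trim11. Its median was 20.1%, beside 27.4% over all detected protein-coding genes. It was not computed in the second quantification, where Trim30a spread more, at 294 ± 47.1 TPM (SD, n = 3).

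In the first quantification, replicate 2 was the lowest library for 20 of 34 detected members (58.8%), beside 57.6% of detected protein-coding genes. It was the highest for 11 of 34 (32.4%), beside 28.1% of those genes. The order of libraries depended on the quantification. In the second, most detected members were lowest in replicate 1, among them Trim12a, Trim34a and Trim41, while Trim35, Trim30b and Trim11 stayed lowest in replicate 2. The next counts are again from the first quantification. Only Trim11 was lower in replicate 2 than in both others by at least 1 on the log2(TPM + 1) scale, with 10.9, 3.55 and 12.1 TPM, against 13.8% of detected protein-coding genes. No detected member was higher by as much, against 3.74% of those genes. Counting protein-coding transcripts only, 4 of 34 members (Trim14, Trim28, Trim3 and Trim11) were lower by as much, 11.8% beside 16.1% of genes. This 1-unit rule was set after the data had been seen.

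A second difference of replicate 2 lay inside the genes. In some members, transcripts outside the protein-coding biotype took over much of the gene's TPM in that library. These are transcripts annotated as processed, as retaining an intron or as targets of nonsense-mediated decay. They held 10.04%, 20.4% and 9.82% of the TPM of detected members in replicates 1, 2 and 3, and 7.44%, 13.1% and 7.67% of that of all detected protein-coding genes. In replicate 2 the share was at least 25 percentage points above that in either other library in 5 of 34 detected members (Trim14, Trim21, Trim28, Trim3 and Trim33), 14.7%, beside 8.88% of detected protein-coding genes. In replicates 1 and 3 no member met this rule. Members with only protein-coding transcripts in the annotation, such as Trim25, could not meet it in any library. The rule was chosen after the data had been seen, and the share of mitochondrial mRNA and the neutrophil, T cell and endothelial marker sums are also highest in replicate 2. Their part in this shift was not tested.

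In Trim14, the transcript Trim14-204 (processed, 670 bases) stood at 28, 115.5 and 21.3 TPM. It held 74.7% of the gene in replicate 2. Protein-coding transcripts of Trim14 stood at 90.4, 30.8 and 103 TPM, lowest in replicate 2. There the gene's total TPM was highest, though its expected counts were not. In Trim21, the intron-retaining Trim21-204 stood at 0.72, 66.95 and 0.19 TPM. Protein-coding Trim21 stood at 106, 72.4 and 107 TPM, lowest in replicate 2. In the second quantification it stood at 69.5, 70.3 and 91.7 TPM, where replicate 2 was not the lowest. Neither Trim14-204 nor Trim21-204 shares a 31-base word with another gene, and the second quantification gave 20.1, 116.03 and 33.98 TPM for Trim14-204 and 1.52, 77.2 and 2.07 TPM for Trim21-204.

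The other 3 members were of the same kind. Trim28-210 stood at 3.00, 24.4 and 10.7 TPM, and protein-coding Trim28 at 24.3, 8.40 and 30.2 TPM. Trim33-206, a target of nonsense-mediated decay, stood at 1.17, 11.4 and 0.66 TPM, and protein-coding Trim33 at 9.01, 6.80 and 8.96 TPM. Trim3-204 stood at 1.22, 6.06 and 0.55 TPM, and protein-coding Trim3 at 8.14, 2.72 and 7.20 TPM. In this quantification, protein-coding transcripts were lowest in replicate 2 in all 5 genes. In the second quantification that held for Trim14, Trim28 and Trim3 only, as protein-coding Trim33 stood at 5.71, 6.63 and 7.62 TPM, lowest in replicate 1. Trim26 did not meet the rule, with other transcripts at 38.8%, 61.6% and 45.2% of the gene.

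**Figure D4:**
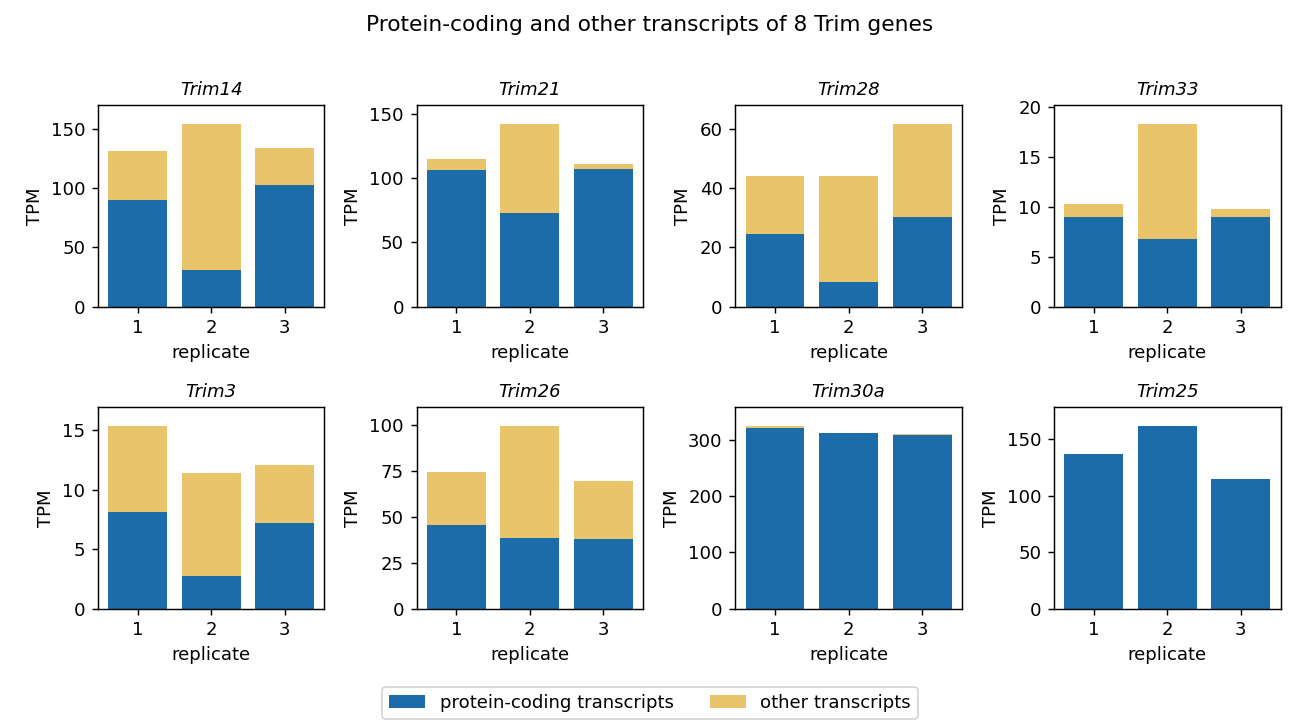
TPM in the first quantification of protein-coding transcripts (blue) and of all other transcripts (yellow) of 8 members in each library; each panel has its own axis from 0. In Trim14, Trim21, Trim28, Trim33 and Trim3 the yellow part is largest and the blue part smallest in replicate 2, while Trim30a is almost all blue. Trim25 is blue throughout, since all its annotated transcripts are protein-coding.

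Most members were carried by protein-coding transcripts. The median protein-coding share over detected members was 99.3%, beside 95.8% over detected protein-coding genes. The 4 most abundant members apart from Trim14 (Trim30a, Trim30c, Trim30d and Trim25) stood at 99.4% or more. Trim30c, Trim30d, Trim25 and several others have only protein-coding transcripts in the annotation, which fixes their share at 100%. How many of the other genes are annotated so was not counted. Summed over TPM, other transcripts held more of detected members than of all detected protein-coding genes in each library, as given above. Trim30b was the lowest of all detected members, with 35.2% on average, because the intron-retaining Trim30b-202 led it at 28.8, 15.1 and 26.2 TPM. Trim28 had a share of 41.2% and Trim3 45.6%. Counting protein-coding transcripts only, the mean was 74.7 TPM for Trim14, 40.7 TPM for Trim26, 20.98 TPM for Trim28, 15.01 TPM for Trim30b, 8.26 TPM for Trim33, 6.02 TPM for Trim3 and 1.41 TPM for Trim47.

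Both quantifications of the same reads gave similar mean levels for most members, but not the same order of libraries. Trim30a, for example, was highest in replicate 1 in the first and lowest there in the second. By limma on within-library differences of log2(TPM + 1), 1 of 37 members tested differed by at least 1 with an adjusted p (Benjamini-Hochberg) below 0.05, beside 1.66% of 10203 genes. This was Trim52, which was silent in the first quantification and had 1.43, 1.11 and 0.78 TPM in the second (difference 1.06, SE 0.181, adjusted p = 3.16e-07, higher in 3 of 3 libraries). All of it lay in Trim52-202, a short processed transcript, and Trim52-201, which encodes the protein, was at 0 in both. Without replicate 1 Trim52 was not called. Trim2 had an adjusted p of 1.21e-04 in the same limma fit but a difference of 0.85. That difference rested on 8.87 TPM in replicate 1 against 0.86 TPM in the first quantification, nearly all in the intron-retaining Trim2-212. The fit gave every member tested the same SE of 0.181, although the differences had SDs of 0.22 in Trim52 and 1.35 in Trim2. These p-values therefore rest on a variance pooled over genes and do not measure a gene's own spread between libraries. The median difference was -0.12 over members tested and -0.14 over all genes tested.

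**Figure D5:**
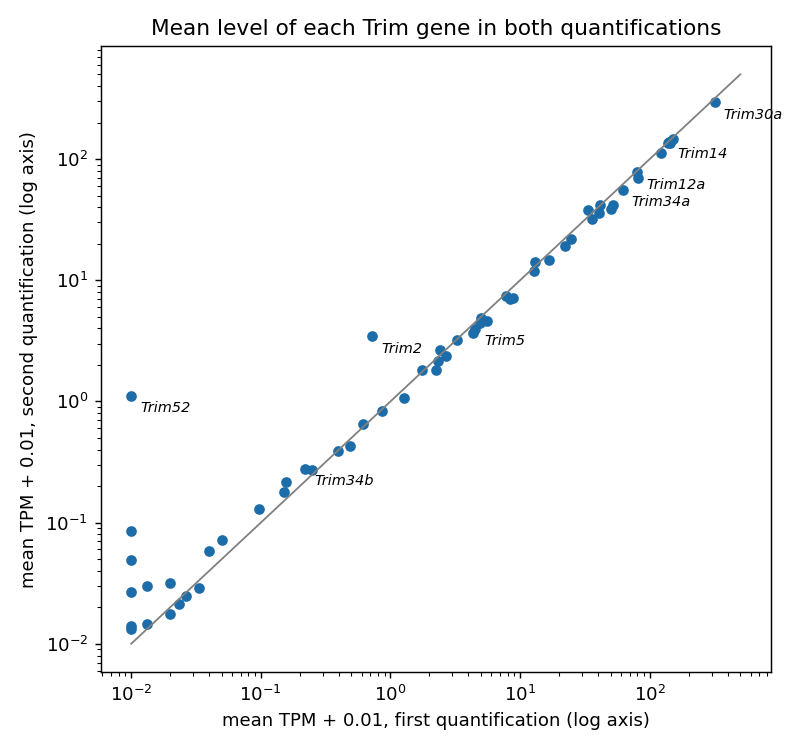
Mean TPM + 0.01 over 3 libraries in the first (x) and second (y) quantification, both on log axes, with 1 point per member and a line where they are equal; members at 0 in both are left out. Trim52 and Trim2 stand above the line, and the near-identical pair Trim34a and Trim34b, like Trim5 and Trim12a, stays close to it.

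The partners of the family were almost all present. All 13 E1 and E2 enzymes were detected, led by Ube2d3 at 382, 2193 and 411 TPM and by Ube2l6, which loads the ubiquitin-like ISG15, at 367, 335 and 401 TPM. Ube2d3 was far higher in replicate 2 than in the others, whereas Ube2l6 was even. All 15 sensing partners found by symbol were detected, with Irf7 at 2908, 2136 and 2569 TPM and Ddx58, which encodes RIG-I, at 280, 375 and 280 TPM. All 9 KAP1 silencing partners found were detected, the highest being Morc3 at 96.1, 231 and 71.4 TPM and Cbx1 at 29.8, 23.2 and 26.02 TPM. Of 5 TRIM proteins that carry another name, 3 were detected. Mid1 varied most, at 86.8, 243 and 46.5 TPM, and Pml, the organiser of nuclear bodies, stood at 96.3, 101 and 86.2 TPM. Counting noise was exceeded by 11 of 13 E1 and E2 enzymes, 15 of 15 sensing partners, 8 of 9 KAP1 partners and 3 of 3 TRIM proteins of other names tested, close to the 87.9% of all genes. None of them was called by edgeR's quasi-likelihood variance fit or differed between quantifications.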

How the data were processed

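Values were those deposited, in 2 quantifications of each library against GENCODE M21 on mm10, per the notes deposited with the files, which name no tool. Expected counts, TPM, posterior mean counts with their SD, and the percent of a gene held by each transcript make up the first deposited set, per the file headers. Estimated counts and TPM make up the second, per the file headers, and were summed to genes. Expected counts were rounded for the count tests. Entries that name no annotated gene (0.0464% to 0.0875% of counts) were left out.

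Fits ran over all genes in edgeR 4.0.16 and limma 3.58.1 under R 4.3.3, with DESeq2 1.42.0 size factors as an alternative, and were checked on simulated data. edgeR's filterByExpr kept 11932 genes and TMM factors were 1.005, 0.886 and 1.12 (replicates 1 to 3). Paralogue ratios used TPM + 0.1. Upper limits from 0 counts cover counting error only. Members, lists, pairs and tests were chosen with earlier results of these data known. The rule for named genes gave values to the 20 highest members, members of pairs, members partly detected or called, and the 2 highest genes of each list; values outside it (means of Trim36 and of the named groups, transcripts of replicate 2, other markers) were chosen after they were seen. Mb21d1 and Tasor were not found by symbol in M21. Promoters were RefSeq's, on GRCm38.p6.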

Additional observations from a re-analysis of the deposited data

How the results depend on the processing

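Detection moved with its threshold: 22 members were detected at 5 TPM, and 34 to 36 at 0.5 TPM, by the mean, in the second quantification, from protein-coding transcripts only or without any 1 library. The count of members beyond counting noise ranged from 27 (without replicate 2) to 38 (no filter on low counts), and over all genes it fell from 10491 to 6695 without replicate 2. The count of members beyond the trend stayed at 0 in all settings run, while over all genes it was 64 without the filter and 7 to 20 without 1 library. Members differing between quantifications numbered 2 with a pseudocount of 0.1 or a difference of 0.5 (Trim52 and Trim2), 0 with no filter on low values, and 0 (without replicate 1) to 2 (without replicate 2 or 3) when 1 library was left out. Between 16 and 20 of the 20 pairs were separated in the settings run, and no pair changed sign; Trim2 over Trim3 in the second quantification (-2.96) and Trim11 over Trim41 without replicate 3 (-2.02) were not separated. The median protein-coding share of detected members was 97.7% in the second quantification. With a rule of 35 points, 3 members had a higher share of other transcripts in replicate 2, with 15 points 6, and in the second quantification 4; these settings, and protein-coding transcripts only, were chosen after seeing the data. No paired analysis was possible because the libraries form 1 group. Groups of 3 libraries are too small for a test of outlying samples.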
